A study of Mus musculus with 4 samples.

Results

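Mitochondrial ribosomal protein genes were defined as the protein-coding genes of GENCODE M21 whose symbol starts with *Mrpl* or *Mrps* followed by a digit. This rule found 78 genes among the 55359 gene identifiers counted, 49 of the large subunit (*Mrpl*) and 29 of the small subunit (*Mrps*). The genes were followed in bulk RNAseq of T8 cells, a leukemia line with genotype Irf4-/- grown out from 1 primary B cell precursor tumor of an Irf4-/- mouse. All 4 libraries therefore came from the same line and share the Irf4-/- genotype, and 2 libraries per group were compared, which the submitters call biological replicates. Control cells received a retrovirus encoding GFP alone (EV-RV), and the others received a retrovirus encoding GFP plus IRF4 (IRF4-RV), a transcription factor of the B cell lineage. RNA was taken from viable cells a day after transduction. The labels' protocol text names the line T11 where titles and tissue name T8, and the libraries were used as T8.

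Mitochondria keep their own ribosome, which translates the few mRNAs transcribed from mitochondrial DNA, all of them coding for subunits of the respiratory chain and ATP synthase. Its ribosomal RNAs are made inside the organelle, whereas its proteins are encoded in the nucleus, translated in the cytosol and imported. The small subunit decodes the mRNA and the large subunit forms the peptide bond and releases the chain into the inner membrane. The comparison asks how the nuclear genes for this ribosome behave when IRF4 is put back, and whether both subunits behave alike.

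The libraries held between 31230223 and 37817752 counts. *Irf4* was at 241 ± 0.584 CPM (counts scaled to the normalized library size) in EV-RV and 2657 ± 234 CPM in IRF4-RV (mean ± SD, n = 2), so the libraries labelled IRF4-RV were the high ones. The level in EV-RV is not 0 although the genotype is Irf4-/-, and whether these counts come from the disrupted allele was not tested. B lineage markers summed to between 7635 and 8979 CPM, whereas T and NK cell markers stayed at or below 2.47 CPM and granulocyte markers at or below 0.165 CPM, and erythroid markers summed to between 12.3 and 15.9 CPM. Macrophage markers moved with the groups, at 0.869 and 0.856 CPM in EV-RV and 7.68 and 6.48 CPM in IRF4-RV. This was nearly all *Mrc1* (24 and 23 counts in EV-RV, 260 and 230 in IRF4-RV, log2 fold change 3.26, edgeR adjusted p = 4.9e-05), while the other 8 of 9 macrophage markers had at most 3 counts in every library. Stromal cell markers summed to 47.5 and 89.4 CPM in EV-RV and to 47.0 and 221 CPM in IRF4-RV, replicate 2 being the higher library in both groups. The members described here were also higher in replicate 2 of both groups. The part of the stromal signal in that difference was not tested. Replicates differed by more than sampling noise in both groups (chi-square over its degrees of freedom, 8.93 in EV-RV and 8.50 in IRF4-RV).

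Most mitochondrial ribosomal protein genes sat slightly lower in IRF4-RV, and few changed by much. Of the 77 genes tested, 20 fell and 1, *Mrpl30*, rose (edgeR quasi-likelihood test, Benjamini-Hochberg adjusted over all genes at a false discovery rate of 0.1). *Mrpl53* had no count in any library and was not tested. The share called, 27.3%, was close to the background of 29.7% over the 14637 genes tested. It was below the 36.3% called among the 7505 genes tested with a mean CPM in the range of the members. The direction was uneven, with 26.0% of the members called lower against a background of 13.7%, and 1.30% called higher against a background of 16%. Among the genes in the CPM range of the members, 17.2% were called lower and 19.1% higher. With scaling to library size alone the background turned to 19.6% lower and 11.9% higher, and members to 37 lower and none higher. The median log2 fold change of the members was -0.15, with a range from -0.50 to 0.26, and that of all genes tested was 0.01. In bulk RNA, fewer cells with high expression and less RNA per cell cannot be told apart.

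**Figure D1:**
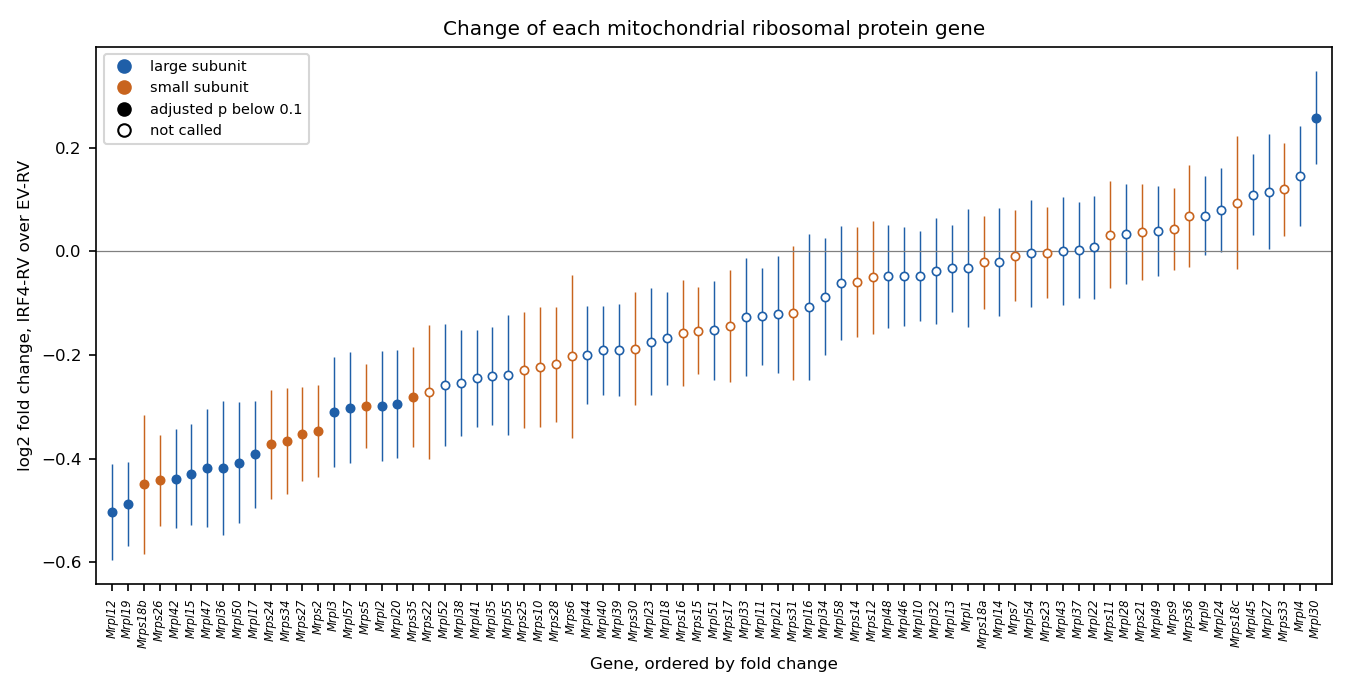
Log2 fold change (IRF4-RV over EV-RV) of the 77 genes tested, ordered from lowest to highest, with bars for 1 standard error, blue for the large and orange for the small subunit. Filled points, 20 below 0 and *Mrpl30* above 0, passed the false discovery rate of 0.1, and open points did not.

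The size of this shift has to be read against the control libraries. Members summed to 4344 and 4991 CPM in EV-RV and to 4059.9 and 4344 CPM in IRF4-RV, so the lower control library and the higher IRF4-RV library were at the same level. All 77 members were higher in EV-RV replicate 2 than in EV-RV replicate 1, by a median of 0.21 on the log2 scale, and 69 of 77 were higher in IRF4-RV replicate 2 than in replicate 1, by a median of 0.09. The spread between the control libraries was thus as wide as the shift between groups. Against EV-RV replicate 2, 73 and 67 members were lower in the IRF4-RV libraries, with medians of -0.29 and -0.21. Against EV-RV replicate 1, 48 and 35 members were lower, with medians of -0.08 and 0.02. The groups did not overlap for 35 members in the lower direction, 45.5% against a background of 29.9%, and for 4 members in the higher direction, 5.19% against a background of 31.3%.

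**Figure D2:**
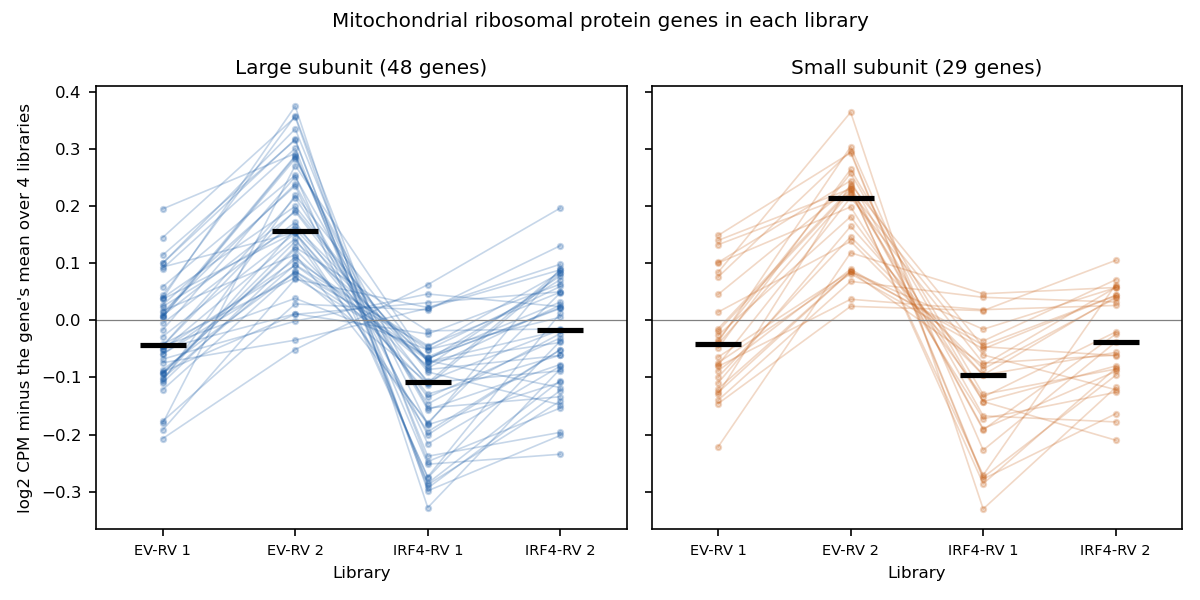
Log2 CPM of each member minus its mean over the 4 libraries, for the 48 large and 29 small subunit genes tested, with lines joining the values of 1 gene and black bars at the median of each library. EV-RV replicate 2 lies highest and IRF4-RV replicate 1 lowest in both panels, and EV-RV replicate 1 lies near IRF4-RV replicate 2.

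Short mRNAs as a whole were also higher in EV-RV replicate 2, although by less. Among protein-coding genes in the shortest of 4 equal bins of transcript length, the median difference between the control libraries was 0.13 on the log2 scale, and it was -0.10 in the longest bin. Members lay at 0.20, 0.21, 0.21 and 0.21 in the bins from shortest to longest, so their difference between the control libraries did not follow transcript length. The fold change between groups did differ with length, with member medians of -0.07, -0.12, -0.23 and -0.23 in the same bins, of 42, 18, 12 and 5 members, while the medians of all protein-coding genes were between 0.01 and 0.05. The members' own longest transcripts had a median of 1866 bases against 3396 for protein-coding genes tested.

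Leaving out a library changed which members were called and how many lay below 0. With all libraries, 60 of the 77 members had a log2 fold change below 0. Without EV-RV replicate 2 this number was 41, and without EV-RV replicate 1 it was 70. Without IRF4-RV replicate 1 it was 53, and without IRF4-RV replicate 2 it was 66. The median of all genes tested stayed between -0.02 and 0.01 in these fits. In each fit the lone library of a group is assumed to vary like the pair of the other group. There were 5 members lower and called in all of these fits, namely *Mrpl12*, *Mrpl19*, *Mrps26*, *Mrpl42* and *Mrpl15*.

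*Mrpl12* showed the largest fall. It encodes the stalk protein of the large subunit, which recruits translation factors and has also been described as a partner of the mitochondrial RNA polymerase. Its levels were 154 and 178 CPM in EV-RV and 113 and 121 CPM in IRF4-RV. Both IRF4-RV libraries lay below both control libraries, which gave a log2 fold change of -0.50 ± 0.09 (SE, adjusted p = 0.0068 by edgeR). *Mrpl12* lies on chromosome 11 (GRCm38, chr11:120484613-120489065, plus strand), where its exons overlap the antisense gene *Gm16755*.

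*Mrpl19*, a large subunit protein with a bacterial counterpart at the subunit interface, was the most even of the falling genes. It was at 70.3 and 75.2 CPM in EV-RV and at 51.6 and 52.2 CPM in IRF4-RV. The libraries of each group were nearly level and the groups stood far apart, with a log2 fold change of -0.49 ± 0.08 (SE, adjusted p = 0.0043 by edgeR). Its exons on chromosome 6 (chr6:81957851-81965958, minus strand) overlap *Gcfc2* on the other strand, and without known strand settings reads from such a pair cannot be told apart.

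*Mrps26*, a small subunit protein found only in mitochondrial ribosomes, was at 85.2 and 94.2 CPM in EV-RV and at 63.4 and 68.6 CPM in IRF4-RV. Its groups did not overlap, and its log2 fold change was -0.44 ± 0.09 (SE, adjusted p = 0.0097 by edgeR). *Mrpl42*, a mitochondria-specific protein of the large subunit, was at 94.9 and 112 CPM in EV-RV and at 75.1 and 77.3 CPM in IRF4-RV. Its log2 fold change was -0.44 ± 0.10 (SE, adjusted p = 0.014 by edgeR), with the control libraries further from each other than the IRF4-RV libraries. *Mrpl15*, which has a bacterial counterpart in the core of the large subunit, was at 88.1 and 101 CPM in EV-RV and at 66.7 and 73.8 CPM in IRF4-RV, a change of -0.43 ± 0.10 (SE, adjusted p = 0.017 by edgeR). All libraries of IRF4-RV were below all control libraries for these 3 genes, and *Mrpl42* (chr10:95480805-95501940) and *Mrpl15* (chr1:4773206-4785739), both on the minus strand, overlap no other exon. The exons of *Mrps26* overlap those of *4930473A02Rik* on the other strand.

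*Mrpl30* went the other way. This large subunit gene was at 83.4 and 93.0 CPM in EV-RV and at 101 and 110.4 CPM in IRF4-RV, with a log2 fold change of 0.26 ± 0.09 (edgeR adjusted p = 0.078). Both IRF4-RV libraries lay above both control libraries. The call was lost with scaling to library size alone and held in 1 of the 4 fits that left out a library, with adjusted p between 0.055 and 0.40. The start of *Mrpl30* (chr1:37890477-37898535, plus strand) lies 66 bases from that of *Mitd1* on the other strand, and *Mitd1* rose by 0.50 on the log2 scale (edgeR adjusted p = 0.019).

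**Figure D3:**
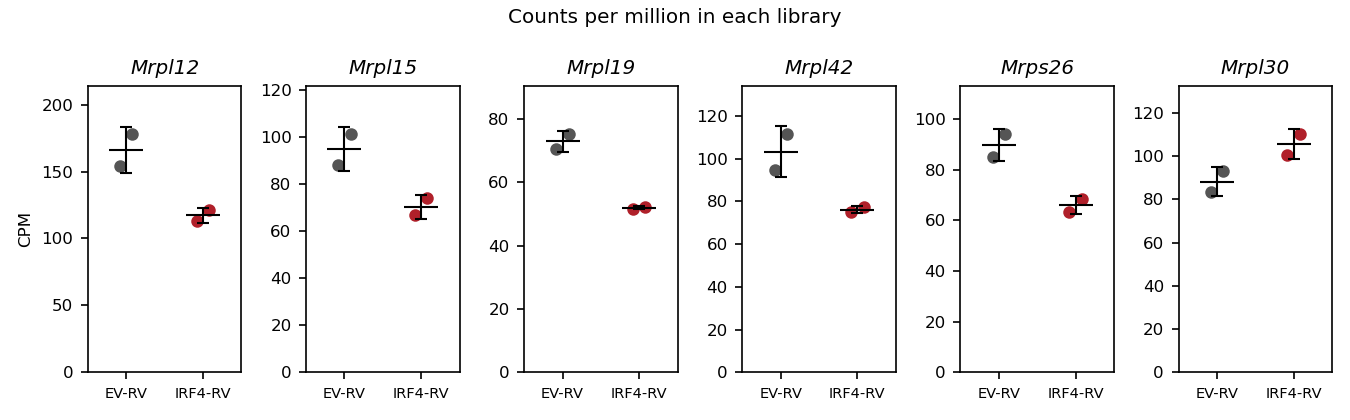
CPM of *Mrpl12*, *Mrpl15*, *Mrpl19*, *Mrpl42*, *Mrps26* and *Mrpl30* in each library (points), with the mean and SD of 2 libraries (bars) on axes that start at 0. The groups are apart in every panel, with IRF4-RV below EV-RV in the first 5 and above it for *Mrpl30*.

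The other 5 of the 10 largest falls were not called in every fit that left out a library. *Mrps18b*, with the third largest fall of the members and 1 of the 3 paralogs related to bacterial S18, was at 15.9 and 19.3 CPM in EV-RV and at 11.9 and 13.8 CPM in IRF4-RV (log2 fold change -0.45, adjusted p = 0.048). The other paralogs did not share this: *Mrps18a* had a log2 fold change of -0.02 (adjusted p = 0.90) and *Mrps18c* of 0.09 (adjusted p = 0.65). *Mrpl47* (-0.42, adjusted p = 0.035) and *Mrpl50* (-0.41, adjusted p = 0.041) were called in 3 of the 4 fits that left out a library. *Mrpl36* (-0.42, adjusted p = 0.054), *Mrpl17* (-0.39, adjusted p = 0.031) and *Mrps18b* were called in 2 of them. In all 5 the lowest control library was above the highest IRF4-RV library. *Mrpl47* overlaps exons of *Actl6a* and *Ndufb5* on the other strand, *Mrpl36* those of *Ndufs6* and *Mrps18b* those of *Gm16279*, whereas *Mrpl50* and *Mrpl17* overlap none.

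The remaining 10 genes that fell had log2 fold changes between -0.37 (*Mrps24*, adjusted p = 0.040) and -0.28 (*Mrps35*, adjusted p = 0.077). They included *Mrpl2* (-0.30, adjusted p = 0.085), a counterpart of the bacterial protein next to the peptidyl transferase center, and *Mrps2* (-0.35, adjusted p = 0.027) and *Mrps5* (-0.30, adjusted p = 0.034) of the small subunit. Members whose exons overlap no other gene gave 1 rise and 10 falls among 45 tested (24.4% called, median -0.15), and members with an overlap gave 10 falls among 32 (31.2% called, median -0.14).

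Large and small subunit genes moved by similar amounts. Of 48 large subunit genes tested 12 fell and 1 rose (27.1%), with a median log2 fold change of -0.13, and of 29 small subunit genes 8 fell (27.6%), with a median of -0.16. No small subunit gene rose by edgeR, and the number was also 0 by DESeq2 and at an unadjusted p under 0.05. Summed over genes, the ratio of large to small subunit CPM was 1.95 and 1.96 in EV-RV and 1.90 and 1.93 in IRF4-RV. The ratio was lower in both IRF4-RV libraries, by a factor of 0.978 between group means. With 2 libraries per group no exact test of such a ratio can pass a threshold of 0.05, and none is given.

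Symbols do not always tell the position in the ribosome. *Mrps30* and *Mrps18a* encode proteins that sit in the large subunit, and *Mrps36* encodes a component of the 2-oxoglutarate dehydrogenase complex. *Mrps30* was at 33.3 and 40.0 CPM in EV-RV and at 32.8 and 31.5 CPM in IRF4-RV (log2 fold change -0.19, adjusted p = 0.27), and *Mrps36* at 36.4 and 42.0 against 41.2 and 41.0 CPM (0.07, adjusted p = 0.67). Neither passed the test. With genes assigned by structure the medians were -0.13 for 50 large subunit genes, with 12 falls and 1 rise, and -0.18 for 26 small subunit genes, with 8 falls. *Mrpl58*, a large subunit protein that also hydrolyses peptidyl-tRNA on stalled ribosomes, had a log2 fold change of -0.06 (adjusted p = 0.74).

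Although the proteins are built into 1 particle, their mRNAs spanned a wide range of levels. Per length of the gene's exons (TPM, which carry no TMM factor, so that groups are compared in CPM), the large subunit was led by *Mrpl34* at 279, *Mrpl12* at 199.9 and *Mrpl54* at 164 TPM (mean of 4 libraries), and the small subunit by *Mrps21* at 275, *Mrps23* at 148 and *Mrps28* at 129 TPM. Within each library *Mrpl34* was above *Mrpl12*, *Mrps21* above *Mrps23* and *Mrps23* above *Mrps28*. Over the 4 libraries the ranges of *Mrps21* and *Mrps23* did not overlap, whereas those of *Mrpl34* and *Mrpl12* did, as did those of *Mrps23* and *Mrps28*. At the low end were *Mrpl33* at 5.23, *Mrpl47* at 11.9 and *Mrpl32* at 14.5 TPM, and in the small subunit *Mrps10* at 10.3, *Mrps30* at 11.1 and *Mrps35* at 12.1 TPM. The range of *Mrpl33* lay below those of all other large subunit genes tested, and the 3 lowest small subunit genes overlapped in range. The gene model matters for these levels: with the longest transcript in place of all exons *Mrpl33* was at 11.2 TPM and *Mrps21* at 333 TPM. The order changed as well, near the top and at the low end. Among the highest small subunit genes, *Mrps24* (104.4 TPM) was then slightly above *Mrps28* (103.6 TPM). By the longest transcript *Mrpl1* (14.0 TPM) was below *Mrpl32* (19.2 TPM). *Mrps25* (11.5 TPM) and *Mrps6* (14.1 TPM) were then below *Mrps10* (16.3 TPM) and *Mrps35* (18.1 TPM).

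**Figure D4:**
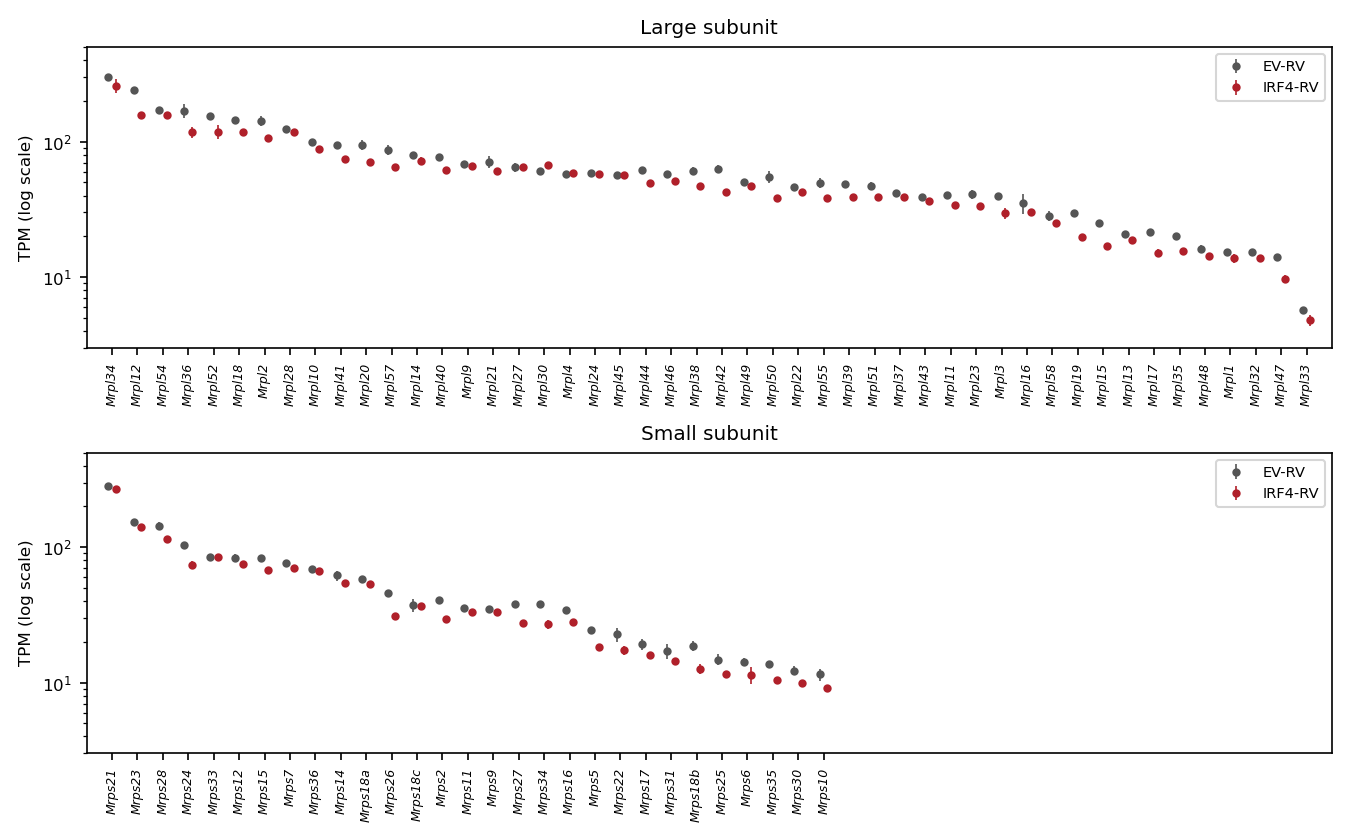
TPM on a log scale for the large subunit (top) and small subunit (bottom) genes tested, ordered by mean level, with the mean and SD of 2 libraries for EV-RV (grey) and IRF4-RV (red). *Mrpl34* and *Mrps21* lead at 279 and 275 TPM, and *Mrpl33* is lowest at 5.23 TPM.

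The genes that build and serve the mitochondrial ribosome mostly had medians of the same sign as its proteins. Their shares are to be read against the background of 29.7% called, 13.7% lower and 16% higher. Among 5 mitoribosomal proteins with other names, *Ptcd3* of the small subunit fell (81 and 83.9 CPM in EV-RV, 63.0 and 63.5 CPM in IRF4-RV, log2 fold change -0.38, adjusted p = 0.010), and *Dap3*, also of the small subunit, had a log2 fold change of -0.13 (adjusted p = 0.24). Of 28 assembly factors 8 fell and none rose (28.6% called, median -0.18), led by *Mrm3* (-0.61, adjusted p = 0.015) and *Mrm1* (-0.59, adjusted p = 0.0059), which methylate the large ribosomal RNA. Of 15 translation factors 5 fell and none rose (33.3% called, median -0.19), among them *Mtrf1l*, a release factor (-0.43, adjusted p = 0.056), and *Lrpprc*, which stabilizes mitochondrial mRNAs (-0.42, adjusted p = 0.0054).

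Mitochondrial tRNA synthetases had 8 falls and no rise among 17 (47.1% called, median -0.23), with *Yars2* (-0.73, adjusted p = 0.0018) and *Ears2* (-0.61, adjusted p = 0.0090), the enzymes charging tyrosine and glutamate, the most reduced. *Yars2* was at 33.2 and 32.3 CPM in EV-RV and at 18.5 and 20.9 CPM in IRF4-RV, so its control libraries were level where those of the ribosomal protein genes were not. The median difference between the control libraries was 0.02 for the synthetases and 0.01 for the translation factors, against 0.21 for the members. Other lists shared more of that difference, with 0.25 for mitoribosomal proteins with other names, 0.20 for protein import and 0.14 for assembly factors. It was 0.10 for upkeep and transcription of mitochondrial DNA and -0.03 for regulators of nuclear genes for mitochondria. Of 16 genes for upkeep and transcription of mitochondrial DNA 5 fell and none rose (31.2% called, median -0.26), led by *Tefm*, the elongation factor of the mitochondrial RNA polymerase (-0.65, adjusted p = 0.012), and *Twnk*, the replicative helicase (-0.49, adjusted p = 0.0062). Of 26 genes for protein import 9 fell and 1 rose (38.5% called, median -0.20), with *Timm8a1* (-0.83, adjusted p = 0.0035) and *Tomm5* (-0.60, adjusted p = 0.0099) lowest and *Pam16* higher (0.40, adjusted p = 0.053).

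RNAs made from mitochondrial DNA went the other way. Of 15 ribosomal RNAs and mRNAs tested 11 rose and none fell (73.3% called), with a median log2 fold change of 0.47. All 15 were also higher in EV-RV replicate 2 than in EV-RV replicate 1, by a median of 0.41 on the log2 scale. Over EV-RV replicate 2, IRF4-RV replicates 1 and 2 had medians of 0.32 and 0.18. Over EV-RV replicate 1 these medians were 0.76 and 0.61. *mt-Co1*, a subunit of cytochrome c oxidase, was at 3461 and 4587 CPM in EV-RV and at 6692 and 5481 CPM in IRF4-RV (0.60, adjusted p = 0.022), and *mt-Nd5*, a subunit of complex I, had the same fold change (0.60, adjusted p = 0.016). The ribosomal RNAs that the members bind did not pass the test: *mt-Rnr1* had a log2 fold change of 0.26 (adjusted p = 0.21) and *mt-Rnr2* of 0.28 (adjusted p = 0.20). For *mt-Rnr2* EV-RV replicate 2 (1495 CPM) was close to IRF4-RV replicate 1 (1511 CPM), and EV-RV replicate 1 (1073 CPM) was lowest. Without EV-RV replicate 1 the number of these RNAs that rose was 5.

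Where no gene of a related list rose, or for the mitochondrial RNAs fell, by edgeR, the number was also 0 by DESeq2, and at an unadjusted p under 0.05 it was 0 except for 1 assembly factor that was higher.

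Cytosolic ribosomal protein genes likewise opposed the mitochondrial ones. Of 88 tested 40 rose and 1 fell (46.6% called), with a median of 0.22, but the number that rose was between 1 and 75 when a library was left out. The largest changes called were those of *Rpl3l* (2.14, adjusted p = 0.0032), which had only 16 and 17 counts in EV-RV and 87 and 71 in IRF4-RV, and *Rpl13a* (0.36, adjusted p = 0.031). The control libraries differed in the same sense as for the mitochondrial genes, with a median of 0.18. The ratio of summed cytosolic to summed mitochondrial ribosomal protein CPM was 27.1 and 26.6 in EV-RV and 34.6 and 34.8 in IRF4-RV. Within each group this ratio was nearly level, and it was 1.29 times as high in IRF4-RV.

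**Figure D5:**
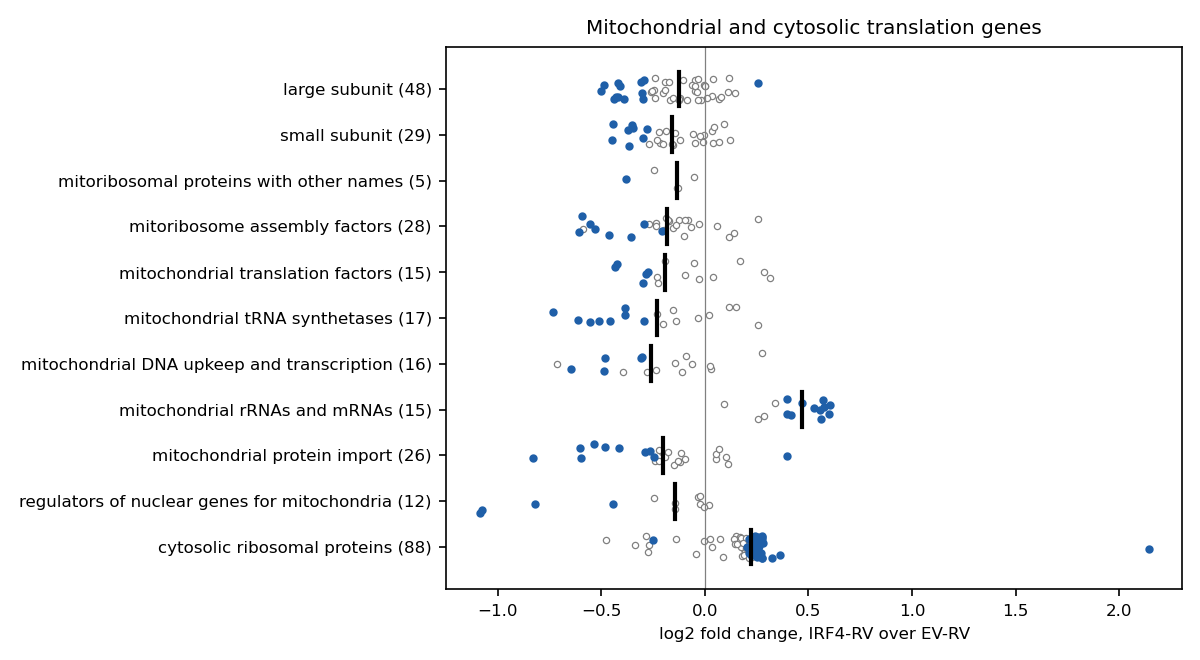
Log2 fold change (IRF4-RV over EV-RV) of each gene tested in the large and small subunit and in 9 related lists, with the number tested in brackets, black bars at the median and filled points for genes past the false discovery rate of 0.1. Medians lie left of 0 except for RNAs from mitochondrial DNA (0.47) and cytosolic ribosomal proteins (0.22).

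Among 12 regulators of nuclear genes for mitochondria tested, 4 fell and none rose (33.3% called, against 29.7% of all genes). *Myc*, a transcription factor that acts on many ribosome genes, was at 279 and 283 CPM in EV-RV and at 142 and 123 CPM in IRF4-RV, a log2 fold change of -1.09 ± 0.09 (adjusted p = 0.00013). *Ppargc1b*, a coactivator of mitochondrial biogenesis, fell by 1.08 (adjusted p = 0.0018). *Yy1*, which binds promoters of many mitochondrial protein genes, was at 167 and 139 CPM in EV-RV and at 117 and 108 CPM in IRF4-RV (-0.45, adjusted p = 0.018), whereas *Nrf1* (-0.03, adjusted p = 0.83) and *Gabpa* (-0.15, adjusted p = 0.25), an ETS factor, did not pass the test. The last 3 were named after their values were seen, because motifs of such factors were searched.

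Promoters from RefSeq (GRCm38.p6, 250 bases before to 50 bases after the start) were found for 69 of the 78 members and searched on both strands for 6 motifs. An ETS motif (CCGGAAG) was in 36.2% of member promoters and 20.0% of the 8806 promoters of protein-coding genes tested. A YY1 motif (AAGATGGC, which holds the letters ATG of a start codon) was in 17.4% against 5.04%, and 8 of its 12 matches in members reached past the transcription start. The NRF1 motif was in 4.35% against 2.31%, the E-box (CACGTG) in 7.25% against 10.2%, the SP1 motif (GGGCGG) in 49.3% against 65.5% and CCAAT in 39.1% against 39.4%. The ETS motif was about as frequent in the 16 promoters of members that fell (37.5%) as in the 51 of members not called (35.3%), and the YY1 motif was in 25% and 15.7%. The E-box was in 3 of the 16 (18.8%, *Mrpl2*, *Mrpl20* and *Mrpl36*) and in 2 of the 51 (3.92%, *Mrpl37* and *Mrps18c*). A match is a match of letters and was not tested as a binding site.

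The stretches of 30 bases around the ETS and YY1 matches in members that fell are printed to show these letters in place, with the motif on either strand in capitals, each read along the strand of its gene.
Mrps18b, ETS, chr17:35916391-35916420 (- strand): tgtcccgagcatgcgcagtcgctCTTCCGG
Mrps26, ETS, chr2:130563732-130563761 (+ strand): ctccgcggccaCTTCCGGgccgggcgcagg
Mrpl42, YY1, chr10:95501904-95501933 (- strand): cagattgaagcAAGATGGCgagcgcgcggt
Mrpl36, YY1, chr13:73330968-73330997 (+ strand): cgtgaccttacGCCATCTTtcttcctggcg
Mrpl17, ETS, chr7:105811306-105811335 (- strand): gcatgctccgcCCGGAAGgcgcctcctcca
Mrps24, YY1, chr11:5707652-5707681 (- strand): cgggtcgcgccggcccAAGATGGCgtggtc
Mrps27, ETS, chr13:99344727-99344756 (+ strand): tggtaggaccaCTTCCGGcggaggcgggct
Mrps27, YY1, chr13:99344789-99344818 (+ strand): tggtgcgctccAAGATGGCggctcccatgg
Mrpl3, ETS, chr9:105053238-105053267 (+ strand): tgagaaacggaCCGGAAGtggcccggctgt
Mrpl57, ETS, chr14:57826232-57826261 (+ strand): ccccagagagaCCGGAAGcagcgcgccgcc
The ETS matches in *Mrps26*, *Mrps27* and *Mrpl3* lay within 50 bases before the start. *Mrps27* held both motifs, the YY1 letters after its start. No ETS or YY1 letters were in the RefSeq window of *Mrpl12*, and *Mrpl15* and *Mrpl19* had no entry.

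Starts of members were often paired with that of another gene. Of the 77 tested, 33 (42.9%) had a start within 1000 bases on the opposite strand, against 17.8% of 11131 protein-coding genes tested. Of their 30 partners that were tested, 5 rose and 2 fell (23.3% called, against 29.7% of all genes tested), and the sign of the fold change was the same in 13 pairs and opposite in 17. *Mrps18b*, for example, fell while *Ppp1r10*, 45 bases away, had a log2 fold change of 0.37 (adjusted p = 0.036), and *Mrpl2* fell while *Klc4* was at 0.34 (adjusted p = 0.084). *Mrpl43* (0.00, adjusted p = 0.99) did not share the fall of its partner *Twnk*. *Mrpl46* and *Mrps11*, the large and small subunit genes that are each other's partner, had log2 fold changes of -0.05 and 0.03. This pair was counted from both sides, among the 30 partners and among the 17 pairs of opposite sign.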

How the data were processed

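The authors used STAR 2.4.0j for alignment to GRCm38 and counted reads per gene with featureCounts. They deposited raw counts for 55359 identifiers, of which 52083 were matched to GENCODE M21 for symbols, exons and coordinates. Strand and multi-mapping settings are not given in the sources used here. Members and lists were chosen with earlier results of these data known. Genes passing filterByExpr were tested with edgeR 4.0.16 in R 4.3.3, by its quasi-likelihood F test after TMM scaling, with an FDR of 0.1 (Benjamini-Hochberg). Standard errors were derived from the F statistic. CPM use TMM-scaled library sizes, and TPM use the union of exons of matched genes. Named genes were the 10 largest falls and rises past the FDR, the 3 highest and 3 lowest levels per subunit, *Mrpl53*, *Mrps18a* to *c*, *Mrps30*, *Mrps36*, *Mrpl58*, the 2 largest changes past the FDR per related list, *Dap3*, *Myc*, *mt-Rnr1* and *mt-Rnr2*. DESeq2 1.42.0, other scalings and filters, a replicate block and leaving out each library were alternatives. Scripts were tested on simulated data. P-values set the difference between groups against a variance estimated from 2 libraries per group and moderated with that of the other genes. All of these libraries come from 1 line.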

Additional observations from a re-analysis of the deposited data

How the results depend on the processing

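The 21 members called were the same genes with DESeq2, and the median log2 fold change of the members stayed below 0 under every alternative run, from -0.27 to -0.04. Members called numbered 37 with scaling to library size alone (37 lower, 0 higher), where the large subunit had 23 and the small subunit 14 and where 11 members changed the sign of their fold change. The number of members called was between 6 and 35 when a library was left out (lower 5 to 35, higher 0 to 1), between 5 and 21 in the large subunit (lower 4 to 21, higher 0 to 1) and between 1 and 14 in the small subunit. An FDR of 0.05 left 14 members, all lower and 0 higher, 7 of them in the large subunit. Without members whose exons overlap another gene, 11 were called (10 lower), 8 in the large subunit (7 lower) and 3 in the small subunit, since fewer genes were counted. The large to small subunit ratio of summed TPM was 1.84 with the longest transcript as length, against 1.99 with all exons. Over these alternatives the number lower was 1 to 3 for mitoribosomal proteins with other names, 4 to 12 for assembly factors, 2 to 7 for translation factors, 5 to 10 for tRNA synthetases, 3 to 9 for upkeep and transcription of mitochondrial DNA, 5 to 16 for import and 4 to 7 for regulators, and the number higher was 5 to 15 for mitochondrial RNAs and 1 to 75 for cytosolic ribosomal proteins. Replicate numbers did not pair the libraries by their labels. Deviations of same-numbered libraries correlated at 0.25 across genes and 0.07 across members. The correlation across members leaves out a shift that all of them share. Members were mostly higher in replicate 2, by medians of 0.21 in EV-RV and 0.09 in IRF4-RV on the log2 scale. With the replicate block 39 members were called, 37 lower and 2 higher (large subunit 25, 23 lower and 2 higher, small subunit 14). The background was then 43.7% called, 20.3% lower and 23.4% higher. With 2 libraries per group, shifts below about the spread between the control libraries could not be resolved.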
